A study of Mus musculus with 6 samples.

Results

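The genes described here encode the aldehyde dehydrogenases and the glutathione transferases of the mouse. They were taken by symbol, as every gene whose symbol begins with Aldh and a digit, with Gst, a class letter (a, k, m, o, p, s, t or z) and a digit, or with Mgst and a digit. Of 18820 genes with a probe set of their own, 40 met this rule, namely 20 aldehyde dehydrogenases, 17 cytosolic or kappa class glutathione transferases and 3 microsomal glutathione transferases. Each gene was read from its probe set with the highest mean over the arrays, and the choice used no difference between the groups.

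The cells are EpRas cells, a single line made from EpH4 mouse mammary epithelial cells of BALB/c background by stable overexpression of Ha-Ras, so that treated and untreated cells both carry the oncogene. Long-term EMT cells were kept with 2 ng/ml TGF-β1 for 14 days (EMT, 3 samples), and control cells were left untreated for the same time (control, 3 samples). From each sample 150 ng of RNA was made into labelled cDNA, which was put on 1 array per sample (Affymetrix MoGene-1_1-st-v1). The deposited values are log2 values from the Robust Multi-array Average (RMA). The samples of a group are described as triplicate wells, and the p-values below therefore measure a spread between wells that may be technical.

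Aldehyde dehydrogenases oxidize aldehydes to acids with NAD or NADP as the acceptor. Their substrates include retinal, the aldehydes that arise when lipids are oxidized, and intermediates of amino acid and folate metabolism, and high activity of this enzyme class is used to sort stem-like cells from breast tissue and breast tumors. Glutathione transferases join glutathione to electrophiles so that they can be exported, and several of them are textbook targets of the oxidant-responsive transcription factor Nrf2 and of the aryl hydrocarbon receptor. The microsomal enzymes belong to an unrelated membrane protein family (MAPEG) that also makes leukotrienes and prostaglandins.

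EMT and control cells were compared in limma, with p-values adjusted over the 35556 probe sets by the Benjamini-Hochberg method, and a gene passed where its adjusted p was below 0.05 and its level differed by more than 1.5-fold. "Rose" and "fell" are used only for genes that passed. Fold changes are given as EMT minus control on the log2 scale, each with its standard error (SE). The background level, 4.48, is the value below which 95% of 1006 probe sets for olfactory receptors had their mean, and 34 of the 40 genes lay above it in 1 group or both. Levels of different probe sets cannot be set against each other, so each gene is compared only with itself and with the background level.

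Control replicate 1 stood apart from the other arrays. Over all probe sets its Pearson correlation with the other controls was 0.987 and 0.984, while those controls correlated at 0.995 with each other and the EMT arrays at 0.993 to 0.996 among themselves. The array carried more signal for many of the genes described here. It lay more than 0.5 above both other controls for 15 of the 40 genes (37.5%), against 6.67% of all genes and 4.9% of all probe sets. These included 4 of the 5 Aldh3 genes, 4 of the 6 mu class genes and all 3 microsomal genes. Values without this array are therefore given beside the results that it moved most. Some mammary epithelial markers also differed between the groups. Of 8 such markers 4 fell in EMT cells (Krt14, Epcam, Cdh1 and Cldn7), and the first 2 lost the call in 3 of 6 fits with 1 array left out. Krt8 and Krt18 were well above background and changed by -0.003 and 0.01. Krt5 and Krt19 changed by 0.14 and 0.64 without passing, and Krt19 was high on EMT replicate 1 alone. The summed log2 level of the 8 was 58.12 to 62.31 on the EMT arrays and 72.22 to 76.37 on the control arrays. The summed level of 8 fibroblast markers was 46.39 to 47.74 on EMT arrays and 48.33 to 52.51 on control arrays, without overlap. None of the 8 passed in limma with adjustment. At an unadjusted limma p under 0.05 and the same fold threshold, 2 were lower and 1, Col1a1, was higher. Pdgfra, Pdgfrb and Dcn were lower on every EMT array than on any control array, and Col1a1 was higher on every EMT array. Pdgfra and Dcn were highest on control replicate 1. Of the 8 changes 5 were above 0 and 3 below, with a median of 0.03, so the lower sum does not hold for each marker. The summed level of 7 leukocyte markers was 30.70 to 31.03 on EMT arrays and 30.53 to 31.27 on control arrays, that of 5 endothelial markers 20.54 to 21.08 on EMT arrays and 20.40 to 20.52 on control arrays, and that of 4 adipocyte markers 17.77 to 18.45 on EMT arrays and 17.81 to 19.28 on control arrays. For 3 hepatocyte markers, a cell type rich in both enzyme families, it was 13.30 to 13.48 on EMT arrays and 13.30 to 13.44 on control arrays, and Alb, the albumin gene, was below background on all arrays. What part the epithelial and fibroblast marker differences or control replicate 1 have in the values below was not tested. In bulk RNA, fewer cells that express a gene and less RNA of it per cell cannot be told apart.

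Long-term EMT cells had lower levels of Aldh3a1, which oxidizes medium-chain and aromatic aldehydes and is abundant in cornea and other epithelia, and of Gstm1, a mu class transferase. These were the members that fell, and 0 members rose. Over all probe sets 0.928% fell and 0.993% rose, and over genes counted once 1.49% fell and 1.47% rose, and a count of 2 in 40 (5%) is too small to be read against these shares. At an unadjusted limma p under 0.05 with the same fold, 9 members were lower and 2 were higher in EMT cells (lower, 2.57% of all probe sets and 3.71% of all genes; higher, 2.21% of all probe sets and 2.88% of all genes). The 3 EMT arrays lay below all 3 control arrays for 11 of the 40 members (27.5%), against 8.68% of all probe sets and 11.5% of all genes, and above them for 4 members (10%), against 10.5% of all probe sets and 12.6% of all genes. The families differed in these counts. Of the 20 glutathione transferases, microsomal ones included, 9 lay below and 2 above with a median log2 fold change of -0.57, while of the 20 aldehyde dehydrogenases 2 lay below and 2 above with a median of -0.01. The median of all genes was 0.02. Without control replicate 1 the medians were -0.19 for the glutathione transferases and 0.00 for the aldehyde dehydrogenases.

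**Figure D1:**
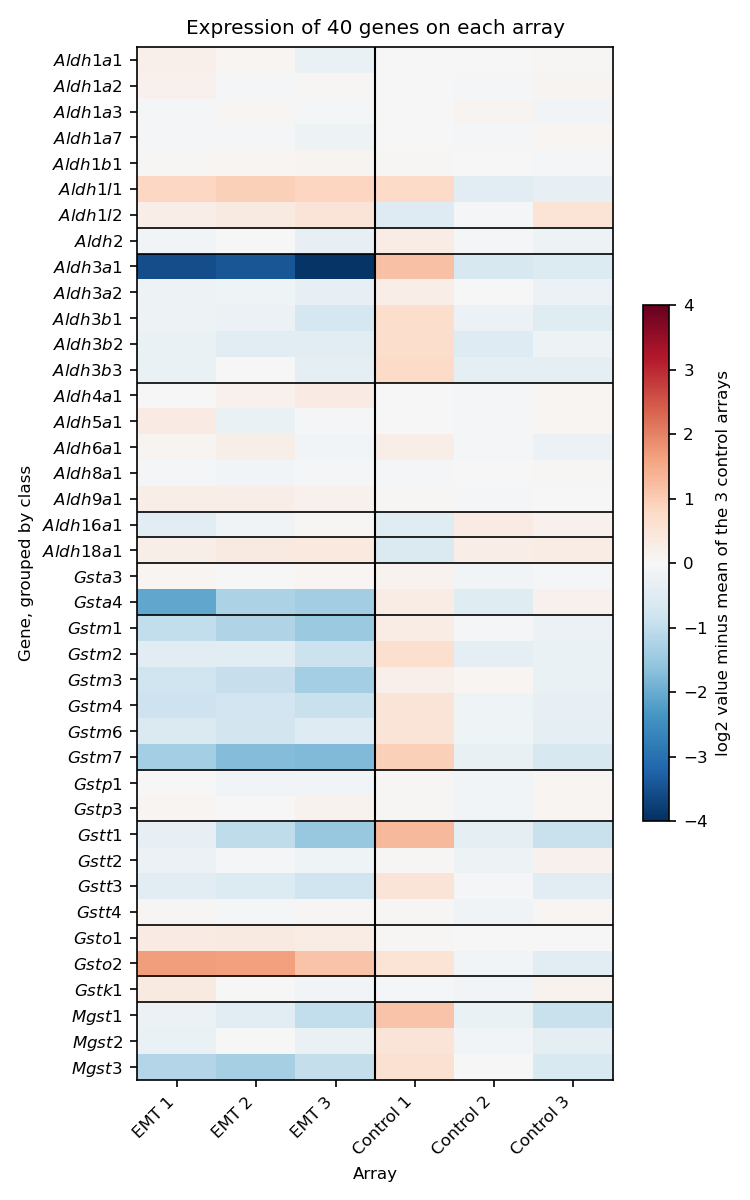
Log2 value of each of the 40 genes (rows, grouped by class) on each of the 6 arrays (columns, 3 EMT then 3 control), less the mean of the 3 control arrays of that gene (colour scale, log2 units). Aldh3a1 and the 6 mu class genes are blue on all EMT arrays, Gsto2 is red on them, and control replicate 1 is red for Aldh3, Mgst, Gstt1 and most mu class genes.

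In the mu class all 6 genes with a probe set of their own were lower on every EMT array than on any control array. The share of all genes with this order was 11.5%. Gstm5 shares its probe set with another transcript, and there the groups overlapped. Mu class enzymes conjugate epoxides and other electrophiles, and their mouse genes stand in tandem on chromosome 3, where the 6 measured genes lie between positions 107926334 and 108045179 of GRCm38.p6. Their log2 fold changes ran from -1.62 to -0.56 (median -0.92, and -0.75 without control replicate 1), but for Gstm2 the groups were barely apart and Gstm6 was below background in EMT cells. Of the 6, Gstm1 passed the test. Its values were 10.74, 10.54 and 10.24 in EMT cells, against 12.04, 11.67 and 11.48 in control cells. The groups stand apart by 0.74 or more, a gap wider than the range of either group. Gstm1 fell by 1.22 on the log2 scale (SE 0.19, limma adjusted p = 0.0314), which is a level 2.33-fold higher in control cells. Without control replicate 1 the change was -1.07 (adjusted p = 0.0332).

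The other mu class genes did not pass. Gstm7 had 5.80, 5.42 and 5.40 in EMT cells and 8.11, 6.87 and 6.51 in control cells, a log2 fold change of -1.62 (SE 0.40, limma adjusted p = 0.131). Its control values spread over 1.60, with replicate 1 the highest, and without that array the change was -1.15 and passed (adjusted p = 0.0318). Gstm3 had 6.83, 6.70 and 6.27 in EMT cells and 7.83, 7.70 and 7.36 in control cells, with a change of -1.03 (SE 0.19) and a limma adjusted p of 0.0531, just above the threshold of 0.05. The probe set read for Gstm3 has numbers that run on from probe sets of chromosome 10 genes, unlike those of the other 39 members, so that its assignment is less sure. The second Gstm3 probe set, with chromosome 3 neighbours, averaged 4.60 in EMT and 5.15 in control cells, close to background (change -0.55, limma adjusted p = 0.217).

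Gstm4 had 6.74, 6.80 and 6.68 in EMT cells, against 8.06, 7.37 and 7.24 in control cells (change -0.82, SE 0.21, limma adjusted p = 0.149). The EMT values lie within 0.12 of each other, and the spread is in the controls, with replicate 1 again on top. Without control replicate 1 the change was -0.565 (limma adjusted p = 0.0365), which is under the 1.5-fold threshold. Gstm2 had 8.20, 8.21 and 7.76 in EMT cells and 9.26, 8.25 and 8.35 in control cells (change -0.56, SE 0.29), so that the groups missed each other by only 0.04 and most of the difference came from control replicate 1 (-0.24 without it). Gstm6 was near background throughout, with 4.30, 4.12 and 4.36 in EMT cells and 5.39, 4.70 and 4.50 in control cells. Its EMT arrays all lay below the background level, where an order of values carries little, and the change of -0.60 was -0.34 without control replicate 1. The mu class genes are close relatives, and how far a probe set of one also reads another was not tested, so the 6 differences are not 6 independent observations.

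Of the 40 members, 33 have a promoter in the RefSeq table used here. The bases before the start of Gstm1, which fell, and of Gstm2, the mu class gene with the smallest difference, are given to show the start regions of neighbouring genes with unlike values. They are on the minus strand of GRCm38.p6, chr3:108017974-108018223 for Gstm1 and chr3:107986421-107986670 for Gstm2, and are written in lower case with matches to any of 4 motifs in capitals.
Gstm1: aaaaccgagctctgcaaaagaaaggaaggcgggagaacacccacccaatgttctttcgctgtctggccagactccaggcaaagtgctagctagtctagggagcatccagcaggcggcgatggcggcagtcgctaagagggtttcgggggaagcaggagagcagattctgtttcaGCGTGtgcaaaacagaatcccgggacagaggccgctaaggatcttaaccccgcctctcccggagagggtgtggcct
Gstm2: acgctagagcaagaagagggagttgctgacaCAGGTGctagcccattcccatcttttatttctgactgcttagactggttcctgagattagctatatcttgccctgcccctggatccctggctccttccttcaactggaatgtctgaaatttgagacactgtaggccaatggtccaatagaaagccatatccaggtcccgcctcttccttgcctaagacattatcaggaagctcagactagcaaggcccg
The motifs, searched on both strands in the 250 bases before the start, were the core of the antioxidant response element read by Nrf2 (TGACNNNGC), the core of the element read by the aryl hydrocarbon receptor (GCGTG), an E-box bound by Zeb factors (CACCTG) and the AP-1 site (TGANTCA). The first and last of these can overlap in sequence. Gstm1 has 1 GCGTG that begins 76 bases before the start, and Gstm2 has 1 E-box that begins 219 bases before it. Among the 6 mu class promoters, 0 hold the antioxidant core, 1 holds the GCGTG core, 1 holds the E-box and 0 hold AP-1. Among the 33 members these numbers are 4, 10, 8 and 3, against 10.1%, 28.3%, 17.1% and 6.85% of 27025 promoters, each searched over the same 250 bases. A match is a description of the letters and was not tied to any measured value.

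**Figure D2:**
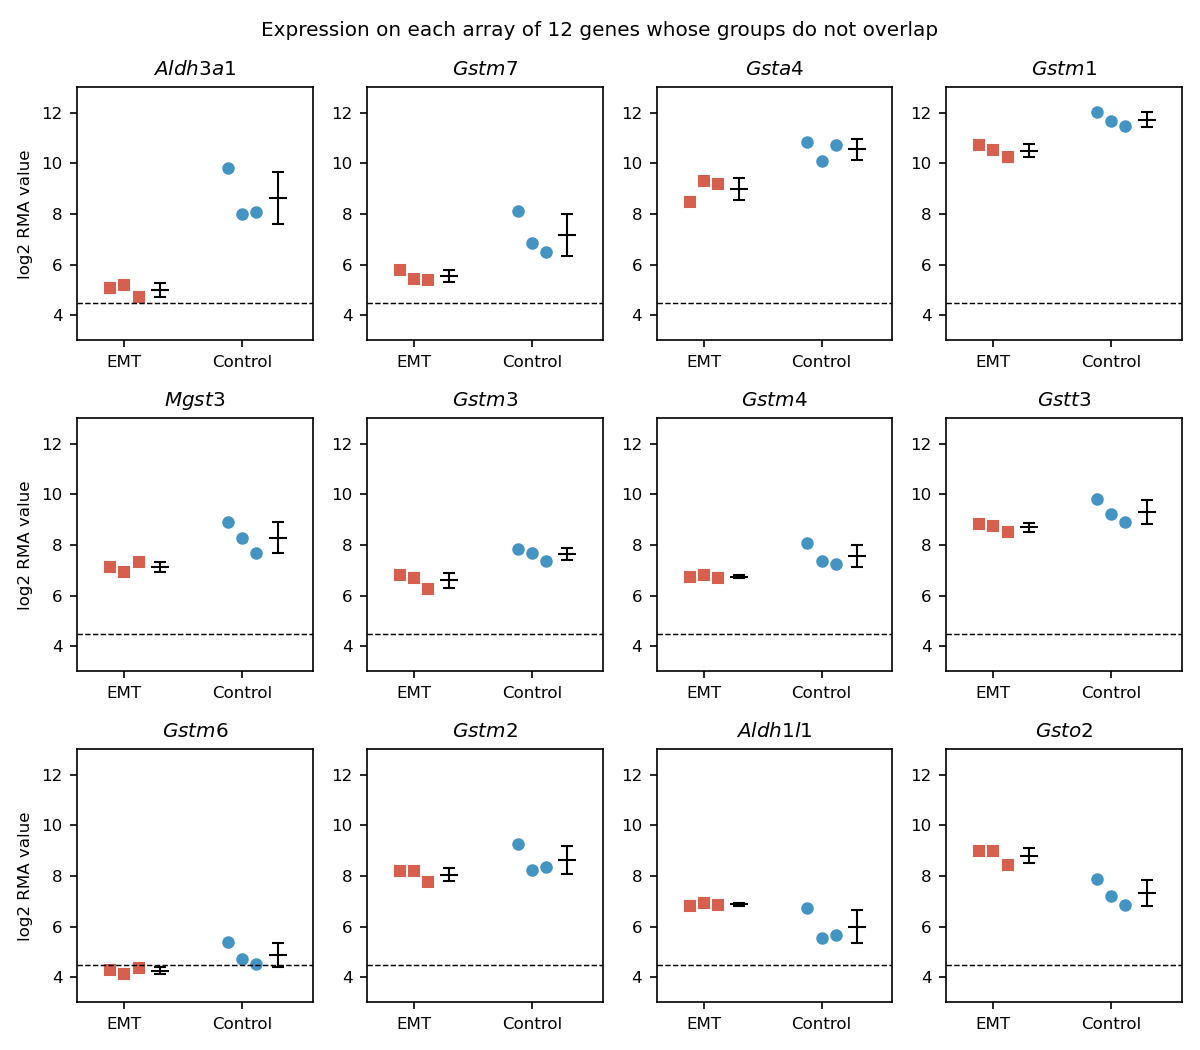
Log2 RMA value (y axis) on each array of 12 genes, those that passed the test and the 10 with the largest differences among genes whose groups did not overlap; EMT arrays are squares on the left, control arrays circles on the right, and the bars give mean ± SD (n = 3). A dashed line marks the background (4.48). Aldh3a1 comes near it in EMT cells, and Gstm6 lies below it there.

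Among the other cytosolic transferases, no alpha, theta or pi class gene passed, and those nearest to it, Gsta4 and Gstt3, had lower values in EMT cells. Gsta4, whose enzyme is the most active of the family on 4-hydroxynonenal, an aldehyde made by lipid peroxidation, had 8.48, 9.30 and 9.17 in EMT cells, against 10.86, 10.08 and 10.73 in control cells. All EMT arrays were lower, by at least 0.78, and control replicate 1 was not exceptional here. The change of -1.57 (SE 0.29) had a limma adjusted p of 0.0538 and so missed the threshold narrowly. Gsta3, the other alpha class gene with a probe set of its own, lay below background in both groups.

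Gstt3, a theta class transferase, had 8.84, 8.75 and 8.50 in EMT cells and 9.81, 9.21 and 8.89 in control cells, a change of -0.61 (SE 0.24, limma adjusted p = 0.340). The groups did not overlap, but the nearest arrays were only 0.05 apart, and without control replicate 1 the change was -0.35. Gstt1, which acts on small halogenated compounds, ranged from 7.22 to 8.41 in EMT cells and from 7.84 to 10.02 in control cells. Its change of -0.95 (SE 0.60) rested on control replicate 1, which lay 1.93 above the mean of the other controls, and was -0.31 without it. Gstt2 and Gstt4 changed by -0.17 and 0.01 with EMT means of 4.68 and 4.72, just above background.

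Gstp1, the pi class transferase known from drug-resistant tumors, was well above background on every array. It had 12.20, 12.10 and 12.11 in EMT cells and 12.26, 12.11 and 12.28 in control cells. The values interleave. The difference of -0.08 has a 95% interval from -0.28 to 0.12, which leaves out a change of 1.5-fold in either direction. Gstp3 changed by 0.08, with an interval from -0.12 to 0.28. Its means of 4.90 in EMT and 4.82 in control cells lay just above background, where values are compressed. The kappa class gene Gstk1, which encodes a mitochondrial and peroxisomal enzyme, had 6.91, 6.55 and 6.44 in EMT cells and 6.51, 6.45 and 6.71 in control cells, with overlapping groups and a change of 0.08.

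The omega class was the exception among the transferases, with both genes higher on every EMT array than on any control array. The share of all genes with that order was 12.6%. Omega enzymes act as thiol transferases and reduce dehydroascorbate and methylated arsenic more than they conjugate. Gsto2 had 9.0, 8.97 and 8.45 in EMT cells, against 7.87, 7.21 and 6.87 in control cells. The lowest EMT array was 0.58 above the highest control, which was replicate 1. The change of 1.49 (SE 0.28) corresponds to a 2.81-fold higher level in EMT cells, with a limma adjusted p of 0.0602, and without control replicate 1 it was 1.77 and passed (adjusted p = 0.0149). Gsto1 had 11.77, 11.83 and 11.76 in EMT cells, against 11.49, 11.44 and 11.44 in control cells. The arrays of each group lie within 0.07 of each other, so that a change of only 0.33 (SE 0.07, limma adjusted p = 0.0826) separated the groups without passing. The genes lie in tandem on chromosome 19, from 47854973 to 47864790 for Gsto1 and from 47865438 to 47886308 for Gsto2. The RefSeq bases before each are shown because these neighbours were the transferases with EMT arrays above control arrays. They are from the plus strand of GRCm38.p6, chr19:47854723-47854972 for Gsto1 and chr19:47865295-47865437 for Gsto2, with capitals for the same 4 motifs.
Gsto1: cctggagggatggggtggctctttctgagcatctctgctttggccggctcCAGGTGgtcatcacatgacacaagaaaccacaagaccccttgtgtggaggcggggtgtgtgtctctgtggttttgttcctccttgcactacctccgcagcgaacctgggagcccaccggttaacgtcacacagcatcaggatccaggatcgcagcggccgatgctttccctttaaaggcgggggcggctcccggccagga
Gsto2: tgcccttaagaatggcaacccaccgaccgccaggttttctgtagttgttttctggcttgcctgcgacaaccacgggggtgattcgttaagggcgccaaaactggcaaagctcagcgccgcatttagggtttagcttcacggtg
Gsto1 has 1 E-box that begins 200 bases before the start. For Gsto2 no motif matched in the 250 bases searched. Of these, 143 are printed, since the RefSeq start used for the search lies inside the listed span of the gene and the other 107 bases fall in that span.

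The microsomal transferases had lower means in EMT cells, and control replicate 1 was the highest array for all 3. Mgst3, which conjugates and reduces lipid hydroperoxides, had 7.11, 6.95 and 7.32 in EMT cells and 8.90, 8.28 and 7.67 in control cells. No array overlapped, although the controls spread over 1.23. The change of -1.16 (SE 0.30) had a limma adjusted p of 0.147. Without control replicate 1 it was -0.85 and did not pass (limma adjusted p = 0.114). It passed without control replicate 3 (-1.46, limma adjusted p = 0.0477). Mgst2, which can also make leukotriene C4, had 8.56, 8.83 and 8.57 in EMT cells and 9.33, 8.72 and 8.44 in control cells. The change of -0.18 turned to 0.07 without control replicate 1. Mgst1, the liver-type detoxification enzyme, ranged from 8.03 to 8.77 in EMT cells and from 8.13 to 10.17 in control cells, and its change of -0.57 became 0.01 without that array.

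**Figure D3:**
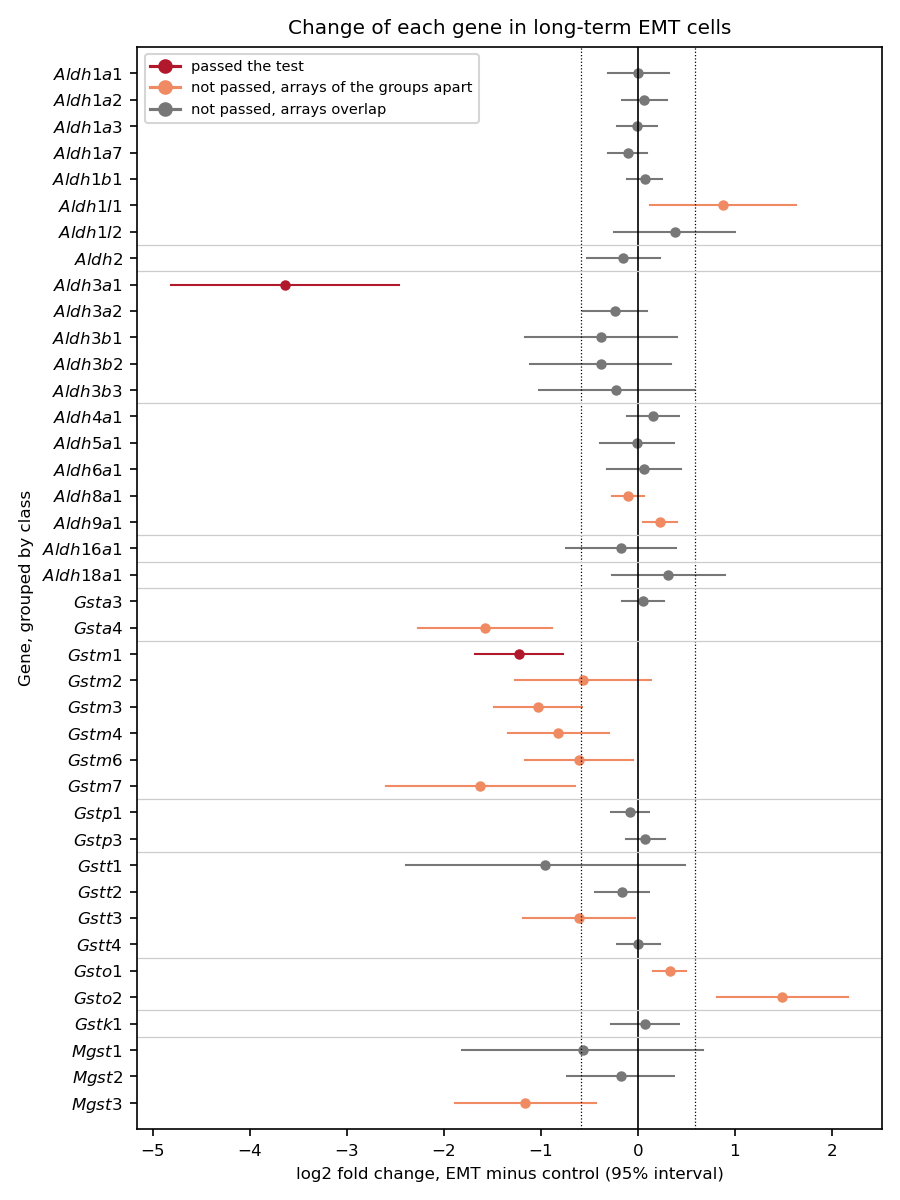
Log2 fold change, EMT minus control, of each of the 40 genes (x axis, points) with its 95% interval from limma (bars), grouped by class; dotted lines mark a 1.5-fold change in either direction. Aldh3a1 (-3.63) and Gstm1 (-1.22) passed the test, and Gsto2 (1.49) has the highest value.

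Among the aldehyde dehydrogenases, Aldh3a1 had the lowest fold change of all 40 members. It had 5.08, 5.20 and 4.70 in EMT cells, against 9.80, 7.99 and 8.09 in control cells. The EMT arrays lay between 0.225 and 0.725 above background, while the lowest control array was 2.79 above the highest EMT array. Aldh3a1 fell by 3.63 (SE 0.49, limma adjusted p = 0.0208), a level 12.4-fold higher in control cells. Control replicate 1 lay 1.76 above the mean of the other controls, and without it the change was -3.05 (adjusted p = 0.00186).

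On the probe sets read, the other Aldh3 genes overlapped between groups. Aldh3a2, the fatty aldehyde dehydrogenase, lies next to Aldh3a1 on chromosome 11. It had 9.46, 9.51 and 9.35 in EMT cells and 9.93, 9.67 and 9.43 in control cells, a change of -0.24 (SE 0.14, and -0.11 without control replicate 1). The intervals of these neighbours do not meet, from -4.81 to -2.46 for Aldh3a1 and from -0.57 to 0.10 for Aldh3a2. Aldh3b1, Aldh3b2 and Aldh3b3, whose products are membrane-bound or lipid droplet enzymes for medium- and long-chain aldehydes, had changes from -0.38 to -0.22, and from -0.03 to 0.17 without control replicate 1. In each of them control replicate 1 lay more than 1 log2 unit above the mean of the other controls, and their EMT values lay around those of the other controls. The second probe set of Aldh3b2 changed by -0.90, and by -0.13 without control replicate 1. That of Aldh3b3 changed by -0.26, with every EMT array below every control array but both group means below background.

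The Aldh1a genes, which make retinoic acid and give most of the activity used to sort stem-like mammary cells, did not pass, and most of them were below background. Aldh1a1 had 4.47, 4.34 and 4.0 in EMT cells and 4.26, 4.24 and 4.30 in control cells, all below background. Aldh1a2 was likewise below background, with 4.25, 4.04 and 4.13 in EMT cells and 4.05, 3.98 and 4.19 in control cells. Aldh1a3, the member of this group that lay above background, had 5.14, 5.23 and 5.14 in EMT cells and 5.18, 5.28 and 5.07 in control cells. Its change of -0.01 has a 95% interval from -0.21 to 0.20, so that a 1.5-fold change lies outside it. Aldh1a7 and the mitochondrial Aldh1b1 lay below background in both groups, as did Aldh8a1, an enzyme of tryptophan breakdown. All EMT arrays of Aldh8a1 lay under its control arrays, but by only 0.06 and on both sides below background. At these levels a difference was not detectable on this array.

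The folate enzymes of the family had higher means in EMT cells. Aldh1l1, the cytosolic 10-formyltetrahydrofolate dehydrogenase, had 6.82, 6.94 and 6.86 in EMT cells, against 6.75, 5.56 and 5.67 in control cells. Control replicate 1 was the exception, 0.07 below the lowest EMT array, while the other controls were more than 1 log2 unit lower. The change was 0.88 (SE 0.31, limma adjusted p = 0.284) with all arrays, and without control replicate 1 it was 1.26 and passed (adjusted p = 0.00332). Aldh1l2, its mitochondrial relative, had 6.71, 6.80 and 6.97 in EMT cells and 5.94, 6.41 and 6.99 in control cells. Here the controls span both sides of the EMT values, and the change of 0.38 (SE 0.26) did not pass. It was 0.13 without control replicate 1 and 0.65 without control replicate 3.

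The aldehyde dehydrogenases of central metabolism overlapped or differed by little. Aldh2, the mitochondrial enzyme that clears acetaldehyde, had 12.14, 12.25 and 11.92 in EMT cells and 12.54, 12.18 and 12.04 in control cells (change -0.15, 95% interval -0.53 to 0.23, and -0.01 without control replicate 1). Aldh9a1, which oxidizes aminoaldehydes on the path to carnitine, had 10.31, 10.31 and 10.24 in EMT cells and 10.11, 10.00 and 10.06 in control cells. All its EMT arrays were higher, by a change of 0.23 (SE 0.07, limma adjusted p = 0.233). Aldh9a1 lies beside Mgst3 on chromosome 1, whose change of -1.16 ran the other way.

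Aldh18a1, which starts proline synthesis from glutamate, had 10.88, 11.00 and 11.03 in EMT cells and 10.08, 10.92 and 10.96 in control cells. Control replicate 1 was low by 0.86 against the other controls, and the change of 0.32 was 0.03 without it. Aldh16a1, a family member thought to lack catalytic activity, had 6.54, 6.84 and 7.03 in EMT cells and 6.50, 7.30 and 7.14 in control cells. Its groups overlapped (change -0.18, and -0.42 without control replicate 1). Aldh4a1, which completes proline breakdown, Aldh5a1, which clears succinic semialdehyde from GABA, and Aldh6a1, which acts in valine breakdown, changed by 0.16, -0.01 and 0.07.

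**Figure D4:**
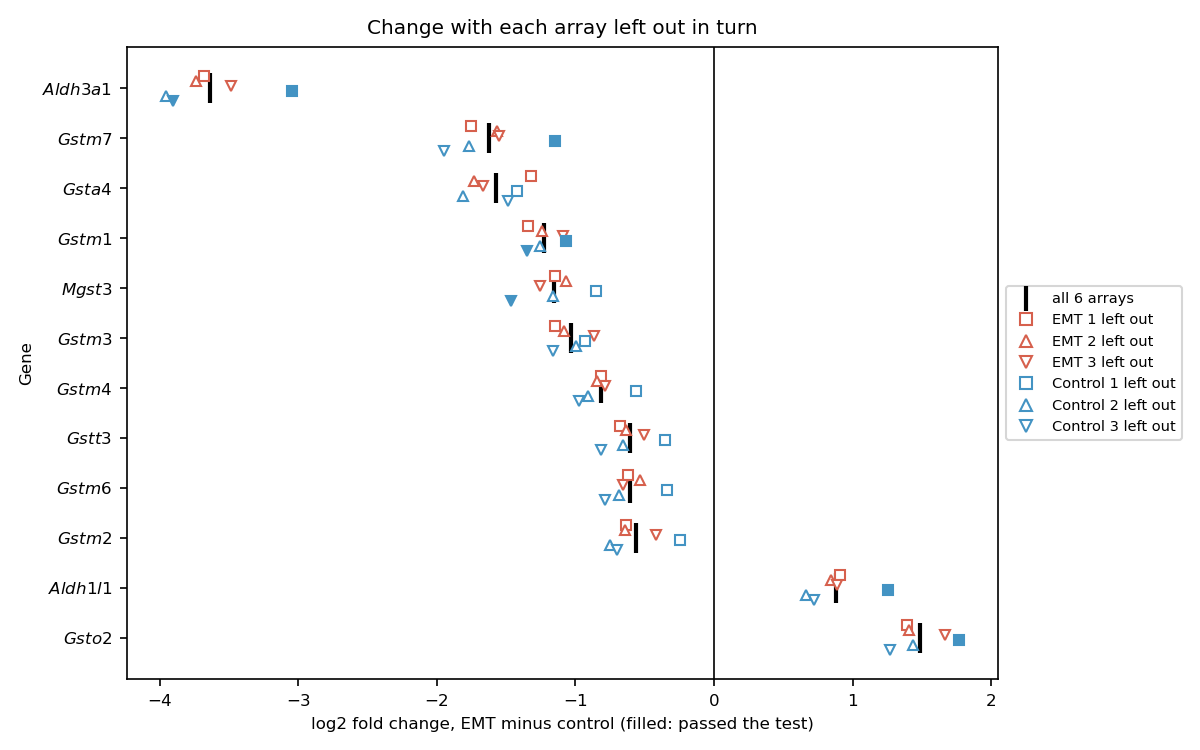
Log2 fold change, EMT minus control (x axis), of the same 12 genes with all 6 arrays (black bars) and with each array left out in turn (red, an EMT array; blue, a control array); filled markers passed the test. The blue squares, without control replicate 1, lie nearest to 0 for 8 of the 10 lower genes and farthest from 0 for Aldh1l1 and Gsto2.

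Which members passed depended on the arrays. Aldh3a1 and Gstm1 passed in 2 of the 6 fits with an array left out, those that lacked control replicate 1 or control replicate 3, and in the other 4 their adjusted p lay between 0.0558 and 0.101 for Aldh3a1 and between 0.0712 and 0.137 for Gstm1. Without control replicate 1, Aldh3a1, Gstm1 and Gstm7 were lower and Aldh1l1 and Gsto2 were higher, so that 5 members passed, while 482 probe sets fell (1.36%) and 472 rose (1.33%). In all these fits the 12 genes plotted by array kept the sign of their change.

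Genes that work with these enzymes were read in 8 lists of 178 measured genes in all, of which 8 fell and 1 rose. Over all genes counted once, 1.49% fell and 1.47% rose. The lists were chosen with earlier results of these data known, so their counts were not tested against these shares. Nrf2 and its other targets gave 2 of 29 that fell and 0 that rose (median change -0.11), and 9 of the 29 (31.0%) had every EMT array below every control array, against 11.5% of all genes. The retinoid pathway had a like share, 10 of 30 (33.3%). Nqo1, a quinone reductase and a standard readout of Nrf2, had 7.36, 7.27 and 7.39 in EMT cells, against 9.57, 9.04 and 9.14 in control cells. The EMT arrays lay within 0.12 of each other and at least 1.65 below the controls. Nqo1 fell by 1.91 (SE 0.15, limma adjusted p = 0.00389), and it passed without any 1 array. Ephx1, the microsomal epoxide hydrolase, had 9.70, 9.59 and 9.19 in EMT cells and 11.63, 11.32 and 11.05 in control cells, and fell by 1.84 (SE 0.19, limma adjusted p = 0.00934). Nfe2l2, which encodes Nrf2, and Keap1, its inhibitor, changed by -0.48 and -0.55 with limma adjusted p of 0.134 and 0.0819. Hmox1, Txnrd1 and Srxn1, other targets of Nrf2, changed by -0.24, 0.32 and -0.23 and did not pass.

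Of the 32 genes for glutathione synthesis and recycling, 1 fell and 0 rose (median -0.01). Gclc, the catalytic subunit of the rate-limiting enzyme of glutathione synthesis, had 9.67, 9.96 and 9.92 in EMT cells and 10.51, 10.64 and 10.76 in control cells. It fell by 0.79 (SE 0.11, limma adjusted p = 0.0263), with no overlap. Its modifier subunit Gclm and the cystine transporter Slc7a11 had every EMT array below every control array without passing, with changes of -0.63 and -1.37. Glutathione reductase, Gsr, changed by 0.02. Genes of this list went both ways, with changes from -1.37 to 1.20. Every EMT array lay below every control array for 6 of the 32 and above for 4, against 11.5% and 12.6% of all genes. At an unadjusted limma p under 0.05 with the same fold, 3 were lower and 2 higher, against 3.71% and 2.88% of all genes.

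The aryl hydrocarbon receptor and phase 1 list had 13 measured genes, of which 5 lay above background and 2 fell. Ahr, the receptor itself, had 7.37, 7.40 and 7.43 in EMT cells, against 10.23, 9.52 and 9.24 in control cells, and fell by 2.26 (SE 0.24, limma adjusted p = 0.0102). Cyp1b1, a cytochrome P450 that the receptor induces, had 3.51, 4.06 and 4.04 in EMT cells, all below background, against 8.28, 6.89 and 7.17 in control cells. It fell (limma adjusted p = 0.009), and its level was at least 7.84-fold higher in control cells when EMT arrays are set to the background level (measured log2 difference -3.58). The receptor's partner Arnt changed by -0.11, and Cyp1a1 lay below background in both groups.

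Other conjugating enzymes and exporters gave 2 of 24 that fell. Sult2b1, the cholesterol sulfotransferase of epithelia, had 5.83, 5.19 and 5.62 in EMT cells and 8.96, 8.46 and 8.20 in control cells, and fell by 2.99 (limma adjusted p = 0.00466). Inmt, a methyltransferase for thioethers and indoles, had 3.90, 4.16 and 4.59 in EMT cells and 10.33, 8.55 and 7.29 in control cells, and fell by 4.51 (limma adjusted p = 0.0358). The EMT arrays of Inmt lay around background, and its controls spread over 3.04. Among aldehyde makers and removers, Xdh, xanthine dehydrogenase, was the 1 of 18 that fell (-1.90, limma adjusted p = 0.0374), with 8.25, 8.40 and 7.73 in EMT cells and 10.66, 9.83 and 9.60 in control cells.

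The MAPEG relatives, prostaglandin and leukotriene genes gave the 1 gene that rose, of 17. Tbxas1, thromboxane synthase, had 5.89, 5.64 and 5.75 in EMT cells, against 4.52, 4.58 and 4.95 in control cells, and rose by 1.08 (SE 0.14, limma adjusted p = 0.0178). Its control arrays lay close to the background level of 4.48. The retinoid pathway, with 30 measured genes, and the proline and folate partners, with 15, had 0 genes that passed in limma with adjustment. At an unadjusted limma p under 0.05 with the same fold, 4 of the 30 retinoid genes were lower and 1 was higher in EMT cells. Of the 15 proline and folate genes, 0 were lower or higher. Over all genes 3.71% were lower and 2.88% higher at these thresholds.

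Of the 9 listed genes that passed, Nqo1 and Sult2b1 also did so in each of the 6 fits with 1 array left out. Ephx1 did not pass without EMT replicate 2 (limma adjusted p = 0.0574) or control replicate 2 (0.0558). Cyp1b1 passed without each control array but in no fit that lacked an EMT array, with limma adjusted p from 0.0503 to 0.0562. Ahr, Inmt, Tbxas1 and Xdh passed only without control replicate 1 or control replicate 3, and Gclc only without control replicate 1, with limma adjusted p from 0.052 to 0.158 in the other fits. Without control replicate 1, 11 listed genes fell and 2 rose, with Slc7a11, Adh7 and Cbr2 added to those that fell and Rdh10, a retinol dehydrogenase, to those that rose.

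**Figure D5:**
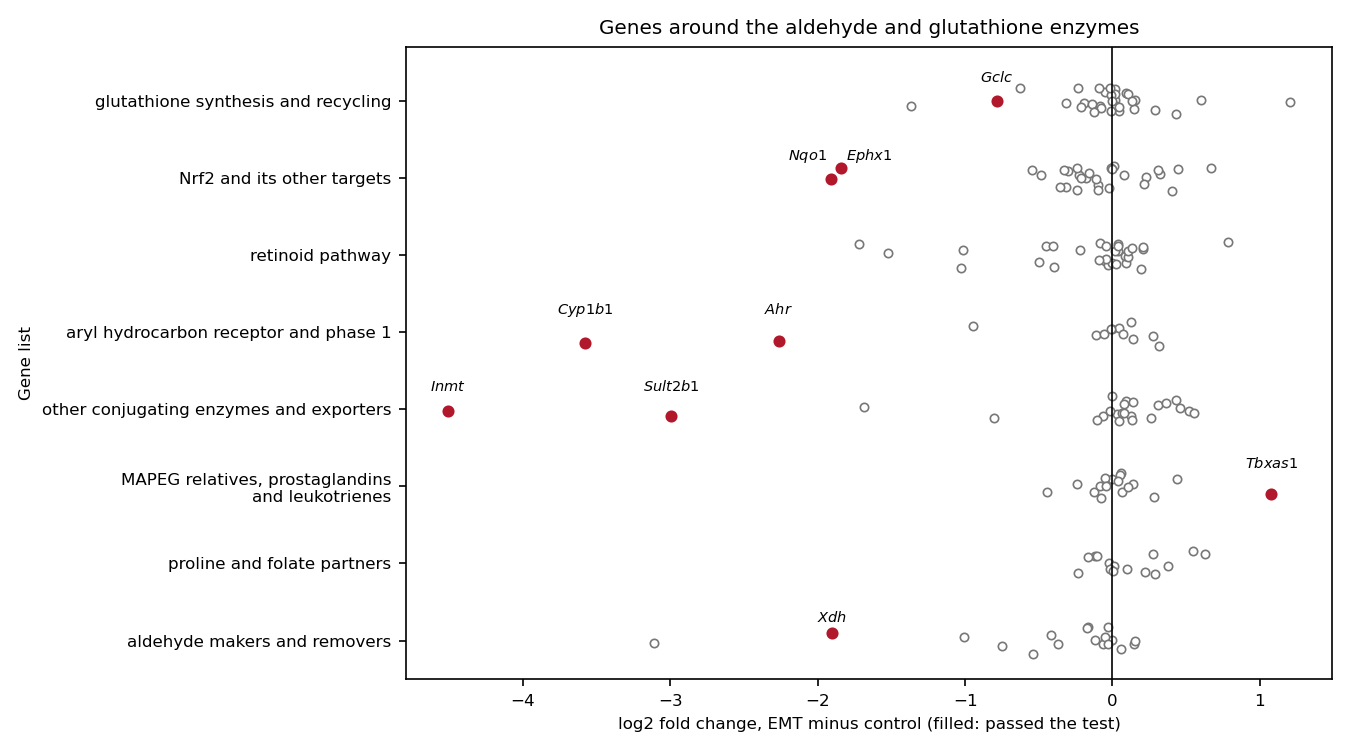
Log2 fold change, EMT minus control (x axis), of the measured genes of 8 lists (rows, with vertical scatter for legibility); filled and named points passed the test. Of the 9 that passed, Tbxas1 lies right of 0 and the others left of it, and most of the remaining genes lie near 0.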

How the data were processed

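The deposited log2 values come from the authors' RMA processing in Affymetrix Expression Console (version not given in the sources used here), on 6 arrays of 35556 probe sets, rounded to 2 decimals. They were used as deposited. RMA quantile-normalizes arrays, so only changes relative to the bulk of genes can be seen, and low values are compressed. In the platform annotation 21218 probe sets have 1 gene symbol, 1881 have several and 12457 have none, and probe sets with several named no gene. Positions and promoters are from RefSeq (GRCm38.p6).

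The comparison of EMT with control used lmFit and eBayes of limma 3.58.1 (R 4.3.3), adjusted by Benjamini-Hochberg over all probe sets, after the code was tested on simulated data. Tables and figures used Python 3.11.15, pandas 2.3.3 and matplotlib 3.10.9. Array number limits the precision. The members and the 8 lists were chosen with earlier results of these data known. Per-array values are given for members that passed, for up to 10 further members with the largest change among those whose groups did not overlap, for the member with the highest mean in each class, and for Aldh1a1, Aldh1a2, Aldh1a3, Aldh3a1 and Gstp1, in all 25 genes. From the lists, genes that passed are named, and the others named were chosen after their values were seen.

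The alternatives were the methods' t-test with and without adjustment, a trended and robust variance prior, unadjusted limma p-values, no fold threshold and a fold of 2, a replicate block, repeated quantile normalization, array medians made equal, a filter on dim probe sets, each array left out, and for genes with several probe sets their mean or the most variable one.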

Additional observations from a re-analysis of the deposited data

How the results depend on the processing

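The members that passed (0 higher and 2 lower in EMT cells) became 1 and 7 with the methods' t-test at its unadjusted threshold and 0 and 0 after Benjamini-Hochberg adjustment, where the same test called 638 and 688 and then 43 and 26 of all probe sets. Unadjusted limma p-values gave 2 and 9 members (785 and 915 probe sets). Equal array medians gave 4 lower members, adding Gsta4 and Gstm3. Leaving out dim probe sets gave 1 higher and 4 lower of 34 members tested, adding Gsto2, Gsta4 and Gstm3, with fewer probe sets to adjust over. A fold above 2 kept both lower members, with 194 probe sets higher. With 1 array left out, 0 to 2 members were higher and 0 to 3 lower, and 107 to 472 probe sets were higher and 98 to 482 lower. Without any 1 EMT array, or without control replicate 2, no member passed.

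Among the 25 genes with per-array values the sign turned for 4. Aldh1a1 was -0.024 after repeated quantile normalization and -0.025 with equal array medians. With 1 array left out, Aldh1a1 lay between -0.097 and 0.138 (below 0 without EMT replicate 1 or 2 or control replicate 2), Aldh1a3 between -0.06 and 0.045 (above 0 without EMT replicate 1 or 3 or control replicate 2), Gstk1 between -0.062 and 0.173 (below 0 without EMT replicate 1) and Mgst2 between -0.372 and 0.073 (above 0 without control replicate 1). Among the other members, leaving out control replicate 1 turned Mgst1 (-0.57, then 0.01) and Aldh3b3 (-0.22, then 0.17), and leaving out other arrays turned Gstt4, Aldh5a1 and Aldh6a1, whose changes were 0.07 or less in size. The causes were not tested. Of 448 values of named members under the alternatives, 401 kept their direction and their side of the threshold, 27 came to pass, 10 ceased to and 10 changed sign. The count of 401 is no measure of stability, since many alternatives left the fold change as it was. The other tests and thresholds, the replicate block and the dim filter reuse it, as do the probe set choices for genes with 1 probe set.

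The replicate number as a block gave 1 higher member (Gsto2) and 3 lower (Aldh3a1, Gstm1 and Gstm3), with 256 probe sets higher and 278 lower. The labels do not say that a number marks shared material. Same-numbered samples deviated from their group means with correlations of 0.19, 0.02 and 0.25. EMT replicates 1 and 3 correlated best with the control of their own number, and EMT replicate 2 with control replicate 1 (0.06). These values do not settle whether same-numbered samples share material.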

Other observations

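Some genes of both families share probe sets with other genes and were not counted above. The probe set of Aldh7a1 and Phax had 10.99, 10.97 and 10.77 in EMT cells, against 10.28, 10.43 and 10.50 in control cells, with all EMT arrays higher (change 0.51, SE 0.10, limma adjusted p = 0.0705). The probe set of Gstm5 and a neighbouring transcript, from the chromosome 3 cluster, changed by -0.47 (limma adjusted p = 0.408). Its groups overlapped, unlike those of the mu class genes above, and the change was -0.29 without control replicate 1. That of Gstz1 and Pomt2 changed by -0.18. The probe sets shared by Gstp1 and Gstp2 changed by -0.09 and -0.08, close to the -0.08 of Gstp1 alone. The probe set with -0.09 has a number among those of chromosome 1 genes, while Gstp1 lies on chromosome 19, so its assignment is less sure. The 4 probe sets shared by Gsta1 and Gsta2 changed by -0.93 to -0.54 and did not pass, and on these control replicate 3, not replicate 1, was the highest array, at 5.59 to 6.71. Without it the changes were -0.39 to -0.25, with EMT means of 4.49 to 4.57 close to background.

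In the lists, the exporter genes Abcb1a and Abcb1b, which encode P-glycoprotein, lay higher on all EMT arrays. Abcb1a had 9.25, 9.32 and 9.25 in EMT cells, against 8.80, 8.74 and 8.73 in control cells, a change of 0.52 (limma adjusted p = 0.0229) that stayed under the 1.5-fold threshold. Abcb1b changed by 0.55 (limma adjusted p = 0.0538). Ugdh, which makes the UDP-glucuronate used in conjugation, changed by 0.46 (limma adjusted p = 0.0304), also under that threshold. Cbr2, a carbonyl reductase, had 8.10, 7.52 and 6.96 in EMT cells and 12.19, 10.27 and 9.44 in control cells, and its change of -3.11 (SE 0.70) did not pass (limma adjusted p = 0.101). These genes were chosen after their values were seen.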
